A study of Mus musculus with 24 samples.

Results

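The 9 apolipoprotein genes Apoa1, Apoa2, Apoa4, Apoa5, Apob, Apoc1, Apoc2, Apoc3 and Apoe, together with Mttp, were followed animal by animal in RNA from isolated mouse hepatocytes. They were selected by gene name from the deposited gene tables, so they are 10 of 55421 genes, and all 10 passed the filter on low counts that left 13847 genes for testing. Apolipoproteins are the protein part of lipoproteins, the particles that carry fat in blood. The hepatocyte exports triglyceride as VLDL, built on a single molecule of the Apob protein that the transfer protein Mttp loads with lipid in the endoplasmic reticulum. Apoa1 and Apoa2 are the main proteins of HDL, and the smaller apolipoproteins exchange between particles, where they set how fast lipases and receptors remove the fat.

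Hepatocytes were obtained by 2-step liver perfusion from C57BL/6J mice, described by the study as male, and polyA RNA was sequenced. From the age of 4 months the chow held either vehicle or eRapa, which is rapamycin, an inhibitor of mTOR, in encapsulated form (42 ppm). At 18 months 8 vehicle animals remained on the normal diet (ND+veh). The others were moved for 9 weeks to a high-fat diet in which fat supplied 60% of the calories, 7 of them with vehicle (HFD+veh) and 9 with eRapa (HFD+eRapa). No group combined normal diet with eRapa, so the drug was compared on the high-fat diet only. Levels within a gene are given as CPM, counts per 1000000 reads after TMM scaling of library size, and levels between genes as FPKM, which also divides by gene length. Differences are log2 fold changes with their standard errors (SE) from edgeR, and a gene is called changed at an adjusted p below 0.05 over all 13847 genes.

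Total counts ran from 17.7 to 25.9 M per library, M standing for 1000000. Of the 10 listed hepatocyte markers, 9 were measured and none was at 0 in a whole group. Their summed CPM had a median of 118235 in ND+veh, 119656 in HFD+veh and 92314 in HFD+eRapa. Sums of markers in this paragraph were made without TMM scaling. For diet 0 of 9 were called, where 25.9% of all tested genes were. With eRapa on the high-fat diet 1 of 9 was called higher, where 10.9% of all tested genes were. Macrophage markers summed to between 48.1 and 1428 CPM in ND+veh, between 162 and 6154 CPM in HFD+veh and between 18.3 and 1001 CPM in HFD+eRapa, and none of the 11 was at 0 throughout a group. On the high-fat diet 4 of these 11 were called higher, where 2218 of all 13847 genes tested were. With eRapa 9 of 11 were called lower than in HFD+veh, where 2925 of all 13847 were. These counts over all genes apply to the other marker lists below as well. A score made from 16 macrophage, lymphocyte and neutrophil genes (mean z, no unit) ran from -1.197 to 0.80 in ND+veh, from -0.50 to 1.68 in HFD+veh and from -1.59 to 0.60 in HFD+eRapa. Other lists moved as well, with 8 of 8 endothelial and 9 of 9 stellate cell markers lower with eRapa than in HFD+veh. Among the markers that could be tested, the high-fat diet gave higher calls for 1 of 2 lymphocyte, 2 of 3 neutrophil and 3 of 3 cholangiocyte genes, and the neutrophil gene Ly6g was at 0 in every ND+veh and HFD+eRapa library. Fewer hepatocytes in a sample and less RNA per hepatocyte cannot be told apart in such bulk libraries. A pair of libraries stood apart for the genes followed here. By CPM, ND+veh replicate 4 was the lowest of its group for Apoa1, Apoa2, Apoa5, Apoc1, Apoc3, Apoe and Mttp and had the highest TMM factor of all libraries, 1.30. HFD+veh replicate 6 was the lowest of its group for every one of the 10 genes except Apob and Mttp, and its immune score was the highest of all libraries.

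Per unit of length, the genes spanned a wide range of levels. Apoe, the ligand through which remnant particles are taken up, averaged 26225 FPKM over the 24 animals and ranked 3 among all genes. Apoa2 followed at 20985 FPKM, then Apoc1 at 12319, Apoa1 at 8406 and Apoc3 at 5659 FPKM. Apoa5, Apob, Apoa4 and Apoc2 lay between 1351 and 650 FPKM, and Mttp was the lowest at 90.9 FPKM. This order holds for the deposited FPKM only. Set against what FPKM, exon length and library depth would give, counts were unevenly low. The median count was 0.215 of that value for Apoc1, 0.263 for Apoc3 and 0.445 for Apoa2, but 0.686 for Apoa1. Counts per exon base can therefore give another order. Apoa2 exceeded Apoc1 in 24 of 24 animals and Apoc3 exceeded Apoa5 in 24 of 24, so these steps held in every animal. Apoe exceeded Apoa2 in 19 of 24, Apob exceeded Apoa4 in 16 of 24 and Apoa4 exceeded Apoc2 in 14 of 24, so these neighbours were not separated. By FPKM the order of Apoa1 and Apoc3 depended on the group. Apoa1 was above Apoc3 in 8 of 8 ND+veh and 9 of 9 HFD+eRapa animals, whereas in HFD+veh Apoc3 was above Apoa1 in 4 of 7. Together the 10 genes held 4.92% ± 0.387 (SD, n = 8) of all counts in ND+veh. The share was 3.86% ± 0.826 (SD, n = 7) in HFD+veh, and HFD+eRapa had 4.73% ± 0.588 (SD, n = 9).

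**Figure D1:**
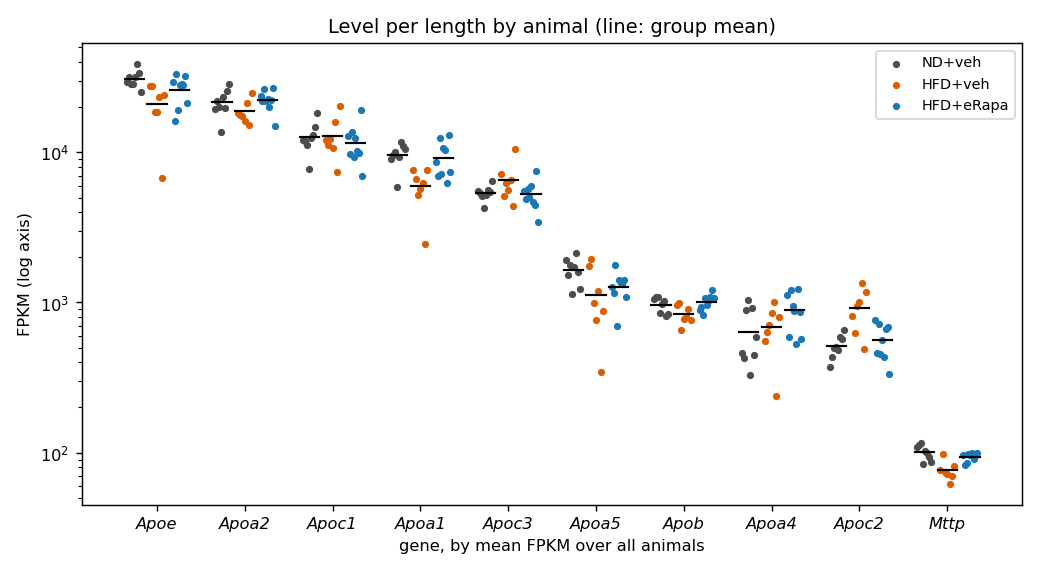
FPKM of each gene in every animal on a log axis, with genes ordered by their mean over all animals and a line at each group mean. Mean levels fall from 26225 FPKM for Apoe to 90.9 FPKM for Mttp, and the points of most neighbouring genes overlap. In every animal Apoa2 was above Apoc1, Apoc3 above Apoa5 and Apoc2 above Mttp.

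The genes lie in 2 clusters and 3 separate places of the genome (GRCm38, mm10). Apoa1, Apoc3, Apoa4 and Apoa5 sit side by side on chromosome 9 between positions 46228580 and 46271919. Apoc2, Apoc1 and Apoe lie on the minus strand of chromosome 7 between 19671579 and 19699188, with Apoc4 among them. Apoa2 is at chr1:171225054-171226379, Mttp at chr3:138089854-138144968 on the minus strand and Apob at chr12:7977648-8016835. The promoters of Apoa1 and Mttp are shown because these were the genes called changed, and that of Apoa5 as a cluster neighbour whose level followed Apoa1 among animals. Apoc3 did so as well, and its window is not shown. Each is 300 bases from RefSeq (GRCm38.p6), 250 before the start site and 50 after it, read 5′ to 3′ on the strand of the gene: chr9:46228380-46228679 for Apoa1, chr9:46268358-46268657 for Apoa5 and chr3:138143369-138143668 for Mttp. Capitals mark matches on either strand to the letters of 5 motifs. These are TATAAA for the TATA box, TGTTTNC for the forkhead family to which Foxa1 belongs, TTGCNNAA for the C/EBP type, CACGTG for the E-box and CAAAGNCCA for the HNF4 type. None of the marked matches overlap each other.
Apoa1: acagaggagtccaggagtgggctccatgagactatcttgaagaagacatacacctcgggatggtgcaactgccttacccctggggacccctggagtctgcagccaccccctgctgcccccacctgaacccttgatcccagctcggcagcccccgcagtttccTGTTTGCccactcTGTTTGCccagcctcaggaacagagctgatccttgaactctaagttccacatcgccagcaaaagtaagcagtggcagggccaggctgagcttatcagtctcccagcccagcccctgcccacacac
Apoa5: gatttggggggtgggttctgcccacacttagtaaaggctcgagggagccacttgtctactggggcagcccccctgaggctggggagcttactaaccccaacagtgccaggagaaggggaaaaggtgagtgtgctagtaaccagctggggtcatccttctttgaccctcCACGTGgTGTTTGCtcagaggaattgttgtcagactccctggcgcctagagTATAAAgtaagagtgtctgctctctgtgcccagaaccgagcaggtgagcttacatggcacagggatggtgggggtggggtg
Mttp: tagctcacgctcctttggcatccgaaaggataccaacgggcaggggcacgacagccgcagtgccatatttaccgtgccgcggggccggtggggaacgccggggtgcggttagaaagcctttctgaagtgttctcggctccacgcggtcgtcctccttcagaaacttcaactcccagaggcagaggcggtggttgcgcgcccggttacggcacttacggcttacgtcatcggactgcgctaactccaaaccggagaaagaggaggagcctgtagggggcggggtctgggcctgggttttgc
The Apoa1 window held a pair of forkhead matches, beginning 88 and 75 bases before the start site. In Apoa5 an E-box began 82 bases before the start, a forkhead match at 75 bases and a TATA box at 31 bases. The Mttp window held none of these letters. RefSeq windows existed for 8 of the 10 genes (12 windows in all, some genes having several starts). Of these 12 windows, 6 held the forkhead letters, from Apoa1, Apoa2, Apoa5, Apob and Apoe. Not every window of Apoa2 and Apoe held them, and for Apoe the match lay in the window chr7:19698349-19698648. TATAAA was in 5 of 12 windows from 4 genes, the C/EBP type in 2, the E-box in 2 from 1 gene and the HNF4 type in 0. The 2 windows of Apoa5 overlap, so the same forkhead, TATAAA and E-box letters were counted in both. Of all 32851 promoter windows, 20.5% held the forkhead letters, 13.6% TATAAA, 10.8% the C/EBP type, 7.15% the E-box and 1.98% the HNF4 type. A match is a description of the letters only.

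The comparison of HFD+veh with ND+veh asks how the high-fat diet changed these genes in late life. Apoa1 and Mttp were lower in HFD+veh, and the other 8 genes were not called by counts. Thus 2 of 10 were called, both lower, where 25.9% of all tested genes were called in either direction and 9.86% were called lower, so 2 genes of 10 do not set the list apart. Over the 10 genes the log2 fold changes had a median of -0.27, against 0.05 over all genes tested. Of the 10, 7 had a negative value. Leaving out Apoc2, whose counts are doubted below, the median was -0.18 and 6 of 9 were negative.

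Apob, the structural protein of VLDL, had similar counts in both groups. Its lowest, median and highest values were 5780, 6568 and 7602 CPM in ND+veh and 4333, 6331 and 8760 CPM in HFD+veh. Apob differed by -0.06 on the log2 scale (SE 0.152, adjusted p = 0.792). By CPM the HFD+veh values enclosed the whole ND+veh range. By FPKM all 7 HFD+veh animals were below the ND+veh median, and 4 were below every ND+veh animal. Apob was not called by limma on log2(FPKM + 1) (-0.22, SE 0.105, adjusted p = 0.146).

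Mttp, the transfer protein that loads Apob with lipid, was lower on the high-fat diet. It ran from 288 through a median of 449 to 482 CPM in ND+veh and from 276 through 296 to 405 CPM in HFD+veh. Every HFD+veh animal was below the ND+veh median, but the groups overlapped, mainly through ND+veh replicate 4, whose 288 CPM was far below the next lowest value of 392 CPM. For Mttp the log2 fold change was -0.37 (SE 0.112, adjusted p = 0.0192), and -0.47 (adjusted p = 0.00306) without that replicate. The call was kept in 24 of 24 fits that each left out 1 library. It was lost when only the 2 groups were fitted (-0.38, adjusted p = 0.0681).

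Among the HDL proteins, Apoa1 was lower on the high-fat diet and Apoa2 was not called. Apoa1 ran from 3858 through 8239 to 10025 CPM in ND+veh and from 1958 through 5281 to 7326 CPM in HFD+veh. All 7 HFD+veh animals lay below the ND+veh median, with replicate 6 the lowest, and the groups overlapped through ND+veh replicate 4. For Apoa1 the log2 fold change was -0.68 (SE 0.241, adjusted p = 0.0411). It was -0.81 (adjusted p = 0.0135) without ND+veh replicate 4 and -0.57 (adjusted p = 0.0723) without HFD+veh replicate 6. The Apoa1 call was kept in only 14 of 24 fits that left out 1 library. Over these fits the log2 fold change ran from -0.81 to -0.57 and the adjusted p by edgeR from 0.0135 to 0.0723. The call thus lay near the threshold and was not secure. Apoa2 averaged 5119 ± 1358 CPM (SD, n = 8) in ND+veh and 4516 ± 988 CPM (SD, n = 7) in HFD+veh, which differed by -0.18 on the log2 scale (SE 0.187, adjusted p = 0.490).

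Apoe was not called by counts. Its values were 16282, 22390 and 28422 CPM (lowest, median, highest) in ND+veh and 5016, 18443 and 23215 CPM in HFD+veh. Apoe differed by -0.49 on the log2 scale (SE 0.221, adjusted p = 0.102), and it was -0.36 (adjusted p = 0.143) without HFD+veh replicate 6, the animal at 5016 CPM. By FPKM, tested with limma on log2(FPKM + 1), Apoe was called lower (-0.67, SE 0.226, adjusted p = 0.0397), and this call was lost without the same animal (-0.42, adjusted p = 0.0779) and kept in 15 of 24 fits that left out 1 library.

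The regulators of lipoprotein lipase showed no call by counts. Apoa5, an activator of the lipase, averaged 1823 ± 397 CPM (SD, n = 8) in ND+veh and 1398 ± 599 CPM (SD, n = 7) in HFD+veh (log2 fold change -0.38, adjusted p = 0.203). Apoc3, an inhibitor of the lipase, averaged 1429 ± 256 CPM (SD, n = 8) and 1742 ± 593 CPM (SD, n = 7), with a difference of 0.29 on the log2 scale (adjusted p = 0.288). Apoc1, also an inhibitor, had 2031 ± 582 CPM (SD, n = 8) and 2092 ± 701 CPM (SD, n = 7), different by 0.04 on the log2 scale (adjusted p = 0.909). Apoa4, an exchangeable apolipoprotein of HDL and triglyceride-rich particles, had 798 ± 288 CPM (SD, n = 8) and 906 ± 343 CPM (SD, n = 7), different by 0.18 on the log2 scale (adjusted p = 0.633). In each of these 4 genes the groups overlapped.

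**Figure D2:**
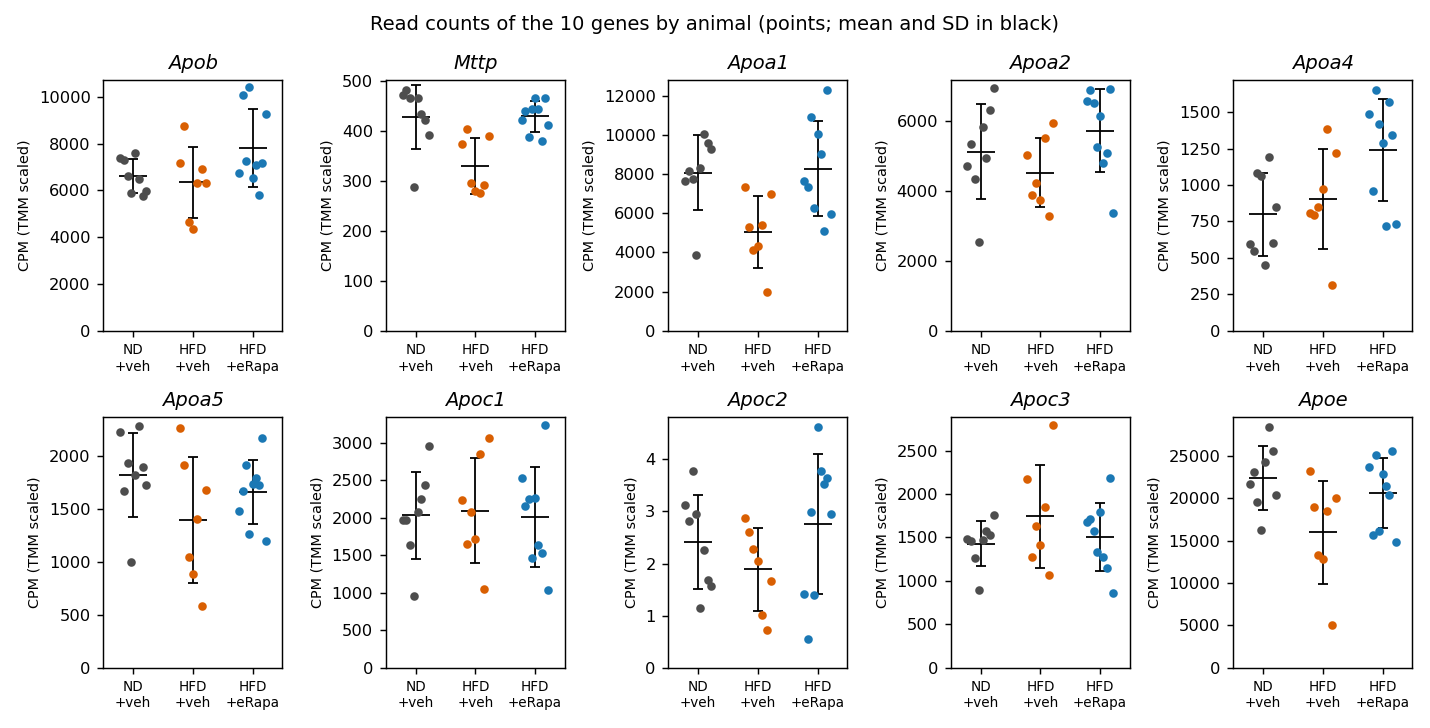
CPM (TMM scaled, linear axis from 0) of the 10 genes in every animal, with the mean and SD of each group in black. Mttp lies between 276 and 405 CPM in HFD+veh and between 379 and 467 CPM in HFD+eRapa, and Apoa1 reaches 7326 CPM at most in HFD+veh, while single low animals are seen in ND+veh for Apoa1, Apoa2, Apoa5 and Mttp.

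The comparison of HFD+eRapa with HFD+veh asks what rapamycin changed on the high-fat diet. It shares the 7 HFD+veh libraries with the diet comparison, so a low value in one of them moves both results. Apoa1 and Mttp were the genes called, both higher with eRapa, which makes 2 of 10 where 32.0% of all tested genes were called in either direction and 10.9% were called higher. As for diet, 2 genes of 10 do not set the list apart. The 10 genes had a median log2 fold change of 0.35 against -0.04 over all genes tested, and 8 of them had a positive value. Leaving out Apoc2, the median was 0.34 and 7 of 9 were positive.

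With eRapa Mttp ran from 379 through a median of 440 to 467 CPM. All 9 animals were above the HFD+veh median and 7 of 9 were above every HFD+veh animal. The spread was also smaller, 429 ± 31.3 CPM (SD, n = 9) against 330.0 ± 56.4 CPM (SD, n = 7). With eRapa the difference of Mttp was 0.38 on the log2 scale (SE 0.109, adjusted p = 0.0109), and the call was kept in 24 of 24 fits that left out 1 library.

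Apoa1 ran from 5113 through 7644 to 12293 CPM with eRapa. Of these 9 animals, 5 were above every HFD+veh animal and 1 was below the HFD+veh median. Apoa1 was higher by 0.71 on the log2 scale (SE 0.236, adjusted p = 0.0236). It was 0.58 (adjusted p = 0.0468) without HFD+veh replicate 6. The call was lost without HFD+eRapa replicate 8 (0.62, adjusted p = 0.0510) and without HFD+veh replicate 3 (0.67, adjusted p = 0.0515).

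Apob was not called by counts, with 7820 ± 1663 CPM (SD, n = 9) in HFD+eRapa and 6355 ± 1516 CPM (SD, n = 7) in HFD+veh (log2 fold change 0.30, SE 0.149, adjusted p = 0.126). It was called without HFD+veh replicate 2, the highest of its group (0.40, adjusted p = 0.0404). On FPKM Apob was called higher with eRapa (0.28, SE 0.102, adjusted p = 0.0465), a call kept in 10 of 24 fits that left out 1 library. The remaining log2 fold changes by counts were 0.34 for Apoa2, 0.45 for Apoa4, 0.25 for Apoa5, 0.37 for Apoe, -0.21 for Apoc3 and -0.06 for Apoc1, with adjusted p from 0.155 to 0.875.

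Between HFD+eRapa and ND+veh, groups that differ in both diet and drug, 0 of 10 genes were called by edgeR, where 13.5% of all tested genes were called. At an unadjusted p below 0.05 by edgeR the count was 1 of 10, where 3598 of all 13847 genes were below it. DESeq2 called 1 of 10, where it called 2179 of all 13847 genes. Of the 10, the gene was Apoa4 in both cases. Its lowest, median and highest values were 448, 728 and 1195 CPM in ND+veh and 718, 1344 and 1655 CPM in HFD+eRapa, and 6 of 9 HFD+eRapa animals were above every ND+veh animal. Apoa4 was at 0.64 on the log2 scale (SE 0.249, adjusted p = 0.0950 by edgeR), and DESeq2 gave 0.65 (adjusted p = 0.0498). Without HFD+veh replicate 6, a library of neither group that still enters the shared fit, edgeR called it (0.62, adjusted p = 0.0489). On FPKM it was 0.52 (SE 0.270, adjusted p = 0.249). In the same contrast Mttp differed by 0.01 (SE 0.104) and Apoa1 by 0.04 (SE 0.224) on the log2 scale. On FPKM each was at -0.09, where the median over all genes tested was -0.08, against -0.03 by counts.

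The immune marker score moved with the same groups. With the score as a covariate, Mttp and Apoa1 were no longer called in either high-fat comparison. Mttp was then -0.24 (adjusted p = 0.219) for diet and 0.22 (adjusted p = 0.277) for eRapa, and Apoa1 was -0.52 (adjusted p = 0.208) and 0.50 (adjusted p = 0.265). On FPKM the calls of Apoe for diet (-0.39, adjusted p = 0.364) and of Apob for eRapa (0.12, adjusted p = 0.585) were lost with it too. Across all genes the calls fell from 3584 to 1238 for diet and from 4432 to 965 for eRapa with this covariate. Apoa4 in HFD+eRapa against ND+veh was called with it (0.68, adjusted p = 0.0465), where 2720 of all 13847 genes were called. The score itself differs between the groups, and the part of other cells in these results was not tested.

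**Figure D3:**
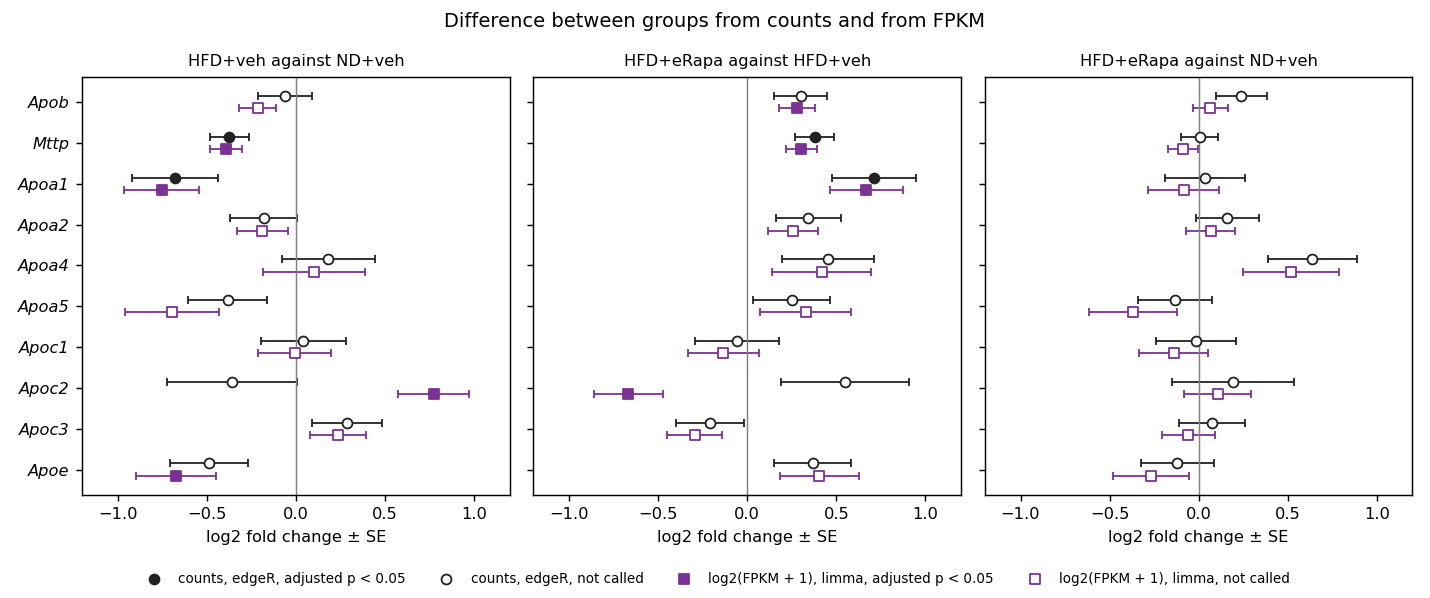
Log2 fold change with its SE for the 10 genes in each comparison, from counts (circles, edgeR) and from log2(FPKM + 1) (squares, limma), filled where the adjusted p is below 0.05. Mttp and Apoa1 are filled in both readouts in the first and second panels, and Apoc2 is the gene whose readouts lie on opposite sides of 0 in both.

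Apoc2, the cofactor without which lipoprotein lipase does not act, gave opposite directions in the deposited readouts. In the Gencode M21 annotation 79.5% of its exon bases are shared on the same strand with Gm44805, a gene that joins Apoc4 and Apoc2. Its counts were only 10 to 94 per library. Set against what its FPKM, exon length and library depth would give, the median count was 0.00422 of that value, whereas the other 9 genes lay between 0.215 and 0.741. Apoa4, which overlaps antisense genes in 69.8% of its exon bases, was at 0.741, so its counts were not low in this way. Measured against its FPKM, the counts of Apoc2 were thus very low, and 20.5% of its exon bases are not shared in this way. The cause was not tested. The authors' program assigns FPKM among overlapping transcripts by a model, and the accuracy of this for Apoc2 was not tested either. With this limit FPKM is given here as the main readout of Apoc2.

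By FPKM, Apoc2 was higher on the high-fat diet and lower again with eRapa. It ran from 373 through a median of 502 to 657 FPKM in ND+veh, from 491 through 941 to 1342 FPKM in HFD+veh and from 333 through 565 to 763 FPKM in HFD+eRapa. Of the 7 HFD+veh animals, 5 were above every ND+veh animal, and all 9 HFD+eRapa animals were below the HFD+veh median. On the log2(FPKM + 1) scale Apoc2 differed by 0.77 (SE 0.199, adjusted p = 0.0110) for diet and -0.67 (SE 0.194, adjusted p = 0.0161) for eRapa, by limma. Both calls were kept in 24 of 24 fits that left out 1 library, and without HFD+veh replicate 6, the lowest of its group, they were 0.91 (adjusted p = 0.00285) and -0.80 (adjusted p = 0.00593). HFD+eRapa against ND+veh differed by 0.11 (SE 0.187, adjusted p = 0.806). By counts the values were -0.36 (SE 0.366, adjusted p = 0.484) for diet and 0.55 (SE 0.358, adjusted p = 0.250) for eRapa. The joined gene Gm44805 itself was far lower, 31.2 ± 4.64 FPKM (SD, n = 8) in ND+veh, 24.2 ± 10.8 FPKM (SD, n = 7) in HFD+veh and 37.6 ± 8.17 FPKM (SD, n = 9) in HFD+eRapa.

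Immune markers moved with Apoc2 too, and Apoc2, Apoe and Apoc1 are also made by macrophages. With the immune score as a covariate the FPKM values of Apoc2 were 0.61 (adjusted p = 0.0963) and -0.47 (adjusted p = 0.262), no longer called. The animal with the highest immune score, 1.68, had the lowest Apoc2 of HFD+veh, 491 FPKM. It was replicate 6, which by CPM was also the lowest of its group for most of the genes followed here. The animal with the lowest score in that group, replicate 1 at -0.50, had 809 FPKM, above every ND+veh animal. Replicate 2 had nearly the same score, -0.46, but lay below the group mean of log2 FPKM. Without replicate 2 the diet difference of Apoc2 by FPKM rose from 0.77 to 0.85. Single animals do not show how Apoc2 and the score relate, and the part of macrophage RNA in the Apoc2 values was not tested.

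**Figure D4:**
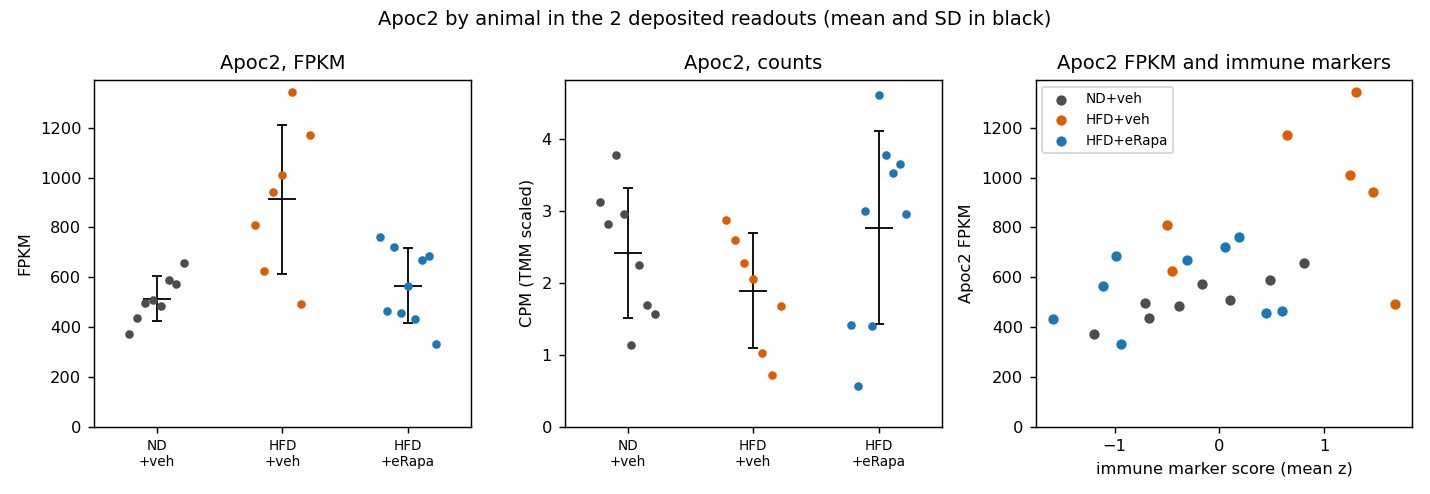
Apoc2 in every animal as FPKM (left), as CPM from counts (middle), each with the group mean and SD, and its FPKM against the immune marker score (right, mean z, no unit). In FPKM 5 of 7 HFD+veh animals are above all ND+veh animals, and in counts the group means are below 3 CPM and overlap. The HFD+veh animal with the highest score, 1.68, has the lowest Apoc2 of its group. It is replicate 6, which is low for most of the genes by CPM.

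With limma on log2(FPKM + 1) over the same 13847 genes, 4 of 10 were called for diet (Apoa1, Apoe and Mttp lower, Apoc2 higher) where 19.5% of all genes were called. For eRapa on the high-fat diet 4 of 10 were called (Apoa1, Apob and Mttp higher, Apoc2 lower) where 24.5% were called. For HFD+eRapa against ND+veh it was 0 of 10 where 10.4% were called. At an unadjusted p below 0.05 it was also 0 of 10 in that comparison, where 3246 of all 13847 genes were below it. Apoa1 was -0.75 (adjusted p = 0.0181) and 0.67 (adjusted p = 0.0214), and Mttp -0.39 (adjusted p = 0.00509) and 0.30 (adjusted p = 0.0153), so these genes were called by both readouts. Counts and FPKM gave the same sign for 8 of 10 genes for diet, 9 of 10 for eRapa on the high-fat diet and 7 of 10 for HFD+eRapa against ND+veh. In the last comparison the median over all genes was -0.03 by counts and -0.08 by FPKM.

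Many of the genes, but not all, varied together among animals of the same group. After group means were removed from log2 CPM, 18 of 45 pairs had an adjusted permutation p below 0.05 by Pearson's r, all 18 positive, and 14 of these were also called by Spearman's rho. Over all 45 pairs the median r was 0.39 and 35 were positive. The share of such pairs among other genes was not measured. The highest were Apoc1 with Apoc3 (r = 0.94, rho = 0.91), Apoa2 with Apoc1 (r = 0.93, rho = 0.91) and Apoa2 with Apoc3 (r = 0.89, rho = 0.88), each at p = 1e-05, the smallest that 100000 permutations can give, and adjusted p = 9e-05. These 3 genes lie on different chromosomes and are among the 4 with the fewest exon bases (Apoa2 537, Apoc1 744, Apoc3 1014), and the part of transcript length was not tested. Without the 2 animals farthest from the median on the x axis, r was still 0.92, 0.90 and 0.85 for these pairs.

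Apoa1, Apoa5 and Apoe were also joined by high values. Apoa5 and Apoe had r = 0.87 (rho = 0.83), Apoa1 and Apoe r = 0.86 (rho = 0.84), and the chromosome 9 neighbours Apoa1 and Apoa5 r = 0.85 (rho = 0.81), with adjusted p from 9e-05 to 0.000113 by permutation of Pearson's r. Without the 2 farthest animals r was 0.80, 0.78 and 0.70. These genes and the 3 above were not separate, since Apoa1 also had r = 0.83 with Apoc1, 0.81 with Apoc3 and 0.74 with Apoa2, all called. Apoa4, which lies between Apoc3 and Apoa5 in the same cluster, and Apoc2 were in none of the called pairs. Apob and Mttp, the pair that assembles VLDL, had r = 0.50 (rho = 0.52, adjusted permutation p = 0.0284 and 0.0469), which fell to r = 0.36 without the 2 farthest animals. Over all 18 called pairs r ran from 0.50 to 0.94, and from 0.36 to 0.92 without the 2 farthest animals. All the values of an animal come from 1 library and share its scaling.

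**Figure D5:**
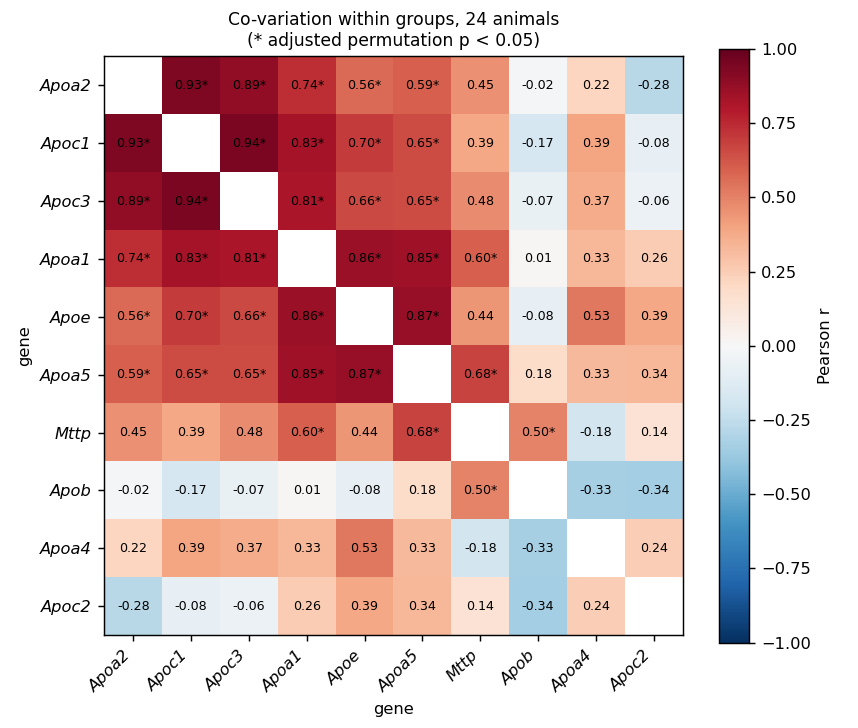
Pearson's r of log2 CPM with group means removed for each pair of the 10 genes over 24 animals, from -1 (blue) to 1 (red), with an asterisk where the adjusted permutation p is below 0.05. Apoa2, Apoc1 and Apoc3 form the block with the highest values, up to 0.94, and the rows of Apoa4 and Apoc2 hold no asterisk.

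Among genes outside the 10, with mean log2 CPM of at least 3, those with the pattern most like Apoa1 over the 24 libraries (of 7821 searched) were Rbp4 (r = 0.95, rho = 0.93), which encodes the retinol carrier of plasma, Mettl26 (r = 0.95, rho = 0.91) and Cyp2d10 (r = 0.92, rho = 0.86). For Mttp they were Bco2 (r = 0.88, rho = 0.84), a carotenoid oxygenase, Cyp4f14 (r = 0.88, rho = 0.82) and Sec63 (r = 0.87, rho = 0.89), a part of the endoplasmic reticulum protein import machinery. Apoa4 was matched less closely, by Psmd8 (r = 0.77, rho = 0.80), Ap1s1 (r = 0.76, rho = 0.68) and Bsg (r = 0.73, rho = 0.68). These values describe likeness across all groups, including the differences between groups.

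Of the factors known to act on apolipoprotein genes, 9 of 32 were called for diet (25.9% of all genes were), 7 lower and 2 higher, with a median log2 fold change of -0.26 against 0.05 over all genes. The forkhead factor Foxa1 fell to 10.1 ± 4.18 CPM (SD, n = 7) in HFD+veh from 24.7 ± 5.89 CPM (SD, n = 8) in ND+veh (-1.29 on the log2 scale, SE 0.257, adjusted p = 0.00158). Onecut1, a hepatocyte homeobox factor, fell as well (-1.69, SE 0.571, adjusted p = 0.0331), a call lost without HFD+veh replicate 6 and without ND+veh replicate 4, and the clock repressor Nr1d2 rose (0.99, SE 0.214, adjusted p = 0.00296). With eRapa on the high-fat diet 11 of 32 were called (32.0% of all genes), 9 higher and 2 lower, with a median of 0.34 against -0.04. Foxa1 was higher by 1.28 (SE 0.252, adjusted p = 0.000995), Onecut1 by 2.38 (SE 0.576, adjusted p = 0.00416), and the coactivator Ppargc1a was lower by 0.89. Foxa1 stayed called in both comparisons with the immune score as a covariate (-1.05, adjusted p = 0.00337, and 0.89, adjusted p = 0.0225), and Onecut1 did not (adjusted p = 0.135 and 0.0940). Without the covariate both shares were near those of all genes. With it 4 of 32 were called in each comparison, where 1238 (diet) and 965 (eRapa) of all 13847 genes were called. Between HFD+eRapa and ND+veh 3 of 32 were called (13.5% of all genes), Nr1d2 (1.11) and the fatty acid receptor Ppara (0.71) higher and Ppargc1a (-0.78) lower. Ppara was not called without ND+veh replicate 4.

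Of the other genes of VLDL assembly and secretion, 5 of 22 were called for diet (25.9% of all genes were), 4 lower and 1 higher, with a median of -0.21 against 0.05. Mia3, which helps export large cargo from the endoplasmic reticulum, was lower by 0.51 (-0.51, SE 0.126, adjusted p = 0.00670), Ces1d, a lipase of the VLDL precursor pathway, was at -0.83 (SE 0.226, adjusted p = 0.0123), Surf4 and Kdelr1 were also lower, and Apobec1, which edits the Apob mRNA, was higher (1.28, SE 0.399, adjusted p = 0.0234). Apobec1 averaged 50.3 ± 39.7 CPM (SD, n = 7) in HFD+veh, a spread close to its mean. It was not called without HFD+veh replicate 6, which left 3 of 22 called (2106 of all 13910 genes were). With the immune covariate it was not called either, which left 1 of 22 (1238 of all 13847 genes were). Without ND+veh replicate 4 the count for diet was 9 of 22, where 3593 of all 13727 genes were called. With eRapa on the high-fat diet 4 of 22 were called, a lower share than the 32.0% of all genes. Cidec and Plin2, proteins of the lipid droplet, were higher (1.96, SE 0.405, adjusted p = 0.00147, and 0.47, SE 0.160, adjusted p = 0.0265), as was Pla2g12b, and Apobec1 was lower (-1.39, adjusted p = 0.00907). Without HFD+veh replicate 6 the calls were Cidec and Plin2. Cidec rose from 12.9 ± 6.77 CPM (SD, n = 7) to 50.4 ± 23.6 CPM (SD, n = 9) and was also above ND+veh, at 7.05 ± 4.19 CPM (SD, n = 8), by 2.83 (adjusted p = 4.59e-05). In that last contrast 4 of 22 were called (13.5% of all genes), Cidec, Plin2 and Smlr1 higher and Tm6sf2, a VLDL lipidation factor, lower (-0.83, adjusted p = 0.0106).

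Of the lipoprotein receptors, lipases and transfer proteins, 7 of 19 were called for diet (25.9% of all genes were), 3 higher and 4 lower, with a median of 0.00 against 0.05. Lpl, the lipase that Apoc2 activates, was higher (2.52, SE 0.880, adjusted p = 0.0388), and so was the cholesterol exporter Abcg1 (2.14, SE 0.650, adjusted p = 0.0209). Lsr, a receptor for remnant particles, was lower (-1.01, SE 0.205, adjusted p = 0.00189), as was Angptl4, an inhibitor of the lipase (-0.997, SE 0.341, adjusted p = 0.0350). Without HFD+veh replicate 6 only 2 of 19 were called for diet (2106 of all 13910 genes were), Lsr and Sdc1, and Lpl, Abcg1 and Angptl4 were not. With eRapa on the high-fat diet 7 of 19 were called (32.0% of all genes), 6 lower and 1 higher. Lpl was at -3.34 (adjusted p = 0.00613), Abcg1 at -2.45 (adjusted p = 0.00592) and Angptl4 at 1.06 (adjusted p = 0.0189). These were among the 4 of 19 called without HFD+veh replicate 6, where 3269 of all 13910 genes were called. With the immune score as a covariate Lpl was -0.21 (adjusted p = 0.766) and -0.05 (adjusted p = 0.955), and Abcg1 0.05 (adjusted p = 0.912) and -0.08 (adjusted p = 0.864). Lsr was also lower in HFD+eRapa than in ND+veh, where 3 of 19 were called (13.5% of all genes), all lower, with Pltp (-1.19) and Angptl8 (-1.83).

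Of 13 tested genes listed as other apolipoproteins and HDL proteins, 8 were called for diet (25.9% of all genes were), 6 higher and 2 lower, with a median of 0.21 against 0.05. The higher calls included Apoo and Apool, whose place in lipoproteins was not examined, so the 8 are not all known lipoprotein genes. Apom, an HDL protein that carries sphingosine phosphate, went from 161 ± 22.8 CPM (SD, n = 8) to 73.1 ± 25.0 CPM (SD, n = 7), or -1.14 on the log2 scale (SE 0.211, adjusted p = 0.000837). Pon1, the HDL-bound paraoxonase, was at -0.80 (SE 0.163, adjusted p = 0.00194). The acute phase genes Saa1 and Saa2 were higher (1.75, adjusted p = 0.0224, and 1.95, adjusted p = 0.00508), but they are near-identical copies whose reads may be split uncertainly, and Saa1 was not called for diet without HFD+veh replicate 6. With eRapa on the high-fat diet 2 of 13 were called, a lower share than the 32.0% of all genes, Pon1 (0.82, SE 0.159, adjusted p = 0.000915) and Saa1 (1.39, adjusted p = 0.0496), and in Saa1 the HFD+eRapa spread of 182 ± 291 CPM (SD, n = 9) exceeded the mean. Without HFD+veh replicate 6, and without ND+veh replicate 4, Pon1 was the gene still called. Pon1 was called with the immune score as a covariate as well (-0.83, adjusted p = 0.00339, and 0.85, adjusted p = 0.00350). Between HFD+eRapa and ND+veh 7 of 13 were called (13.5% of all genes), 6 higher and 1 lower, led by Saa1 (3.14) and Saa2 (3.04), with Apom lower (-0.69). Apoo and Apool were again among the higher genes.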

How the data were processed

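The tables cover 24 hepatocyte libraries. Groups and replicate numbers came from the sample labels. The batch label is 1 for every library, which leaves no batches to compare. The labels number the replicates without naming animals. Each library is called an animal here, and p-values measure the spread between these samples. According to the submitters' processing notes and the study's methods, STAR placed the reads on mm10, using Gencode M23 gene models, and SAMtools 1.1.0 filtered the alignments. The authors' counts come from HTSeq 0.11.2 and are whole reads for each gene. Whether strand was used is not stated, which makes the counts of genes that overlap one another uncertain. The deposited FPKM values were made by the authors with Cufflinks, which shares reads among overlapping transcripts. In 85 same-group pairs the chi-square per degree of freedom was at least 12.3, so each library counted as 1 replicate.

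The 10 genes and all gene lists were chosen with earlier results of these data known. Counts were tested with edgeR 4.0.16 (R 4.3.3) by quasi-likelihood on all 3 groups, with TMM, the filter of filterByExpr and Benjamini-Hochberg adjustment over 13847 genes; log2 CPM used a prior count of 2. FPKM were tested with limma 3.58.1 (trend, robust) on log2(FPKM + 1). Alternatives were DESeq2 1.42.0, other size factors, filters and pseudocounts, only 2 groups, a replicate block, an immune marker score as a covariate and leaving out each library. The fits behind Apoc2, Apoe and Apob from FPKM with a block, covariate or library left out, and those of the companion lists, were added after seeing the data. Scripts were tested on simulated data. Pairs of genes were tested by 100000 two-sided permutations within groups, adjusted over 45 pairs. Besides the 10 genes, those named were the called genes of each companion list with mean FPKM of at least 1 and up to 2 of the largest changes in each direction, further called genes where a count was 5 or fewer, and the 3 genes most like each of the 3 genes with the smallest adjusted p. Exon overlaps came from Gencode M21 (GRCm38), in which 55154 identifiers were found once versions were ignored. Promoter windows came from RefSeq. Total counts of at least 17.7 M per library limit counting error to a small part of the spread for all genes but Apoc2.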

Additional observations from a re-analysis of the deposited data

Results flagged for a closer look

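In 42 groups of values (10 genes by log2 CPM, Apoc2 also by log2 FPKM, total counts, the immune marker score and the summed share of counts, each in 3 groups), 9 held a lowest or highest sample whose gap to its neighbour was above Dixon's 95% critical value. Chance flags about 1 in 20 groups, and the values of an animal are not independent of each other. ND+veh replicate 4 was low for Apoa1 (log2 CPM 11.9, others 12.9 to 13.3), Apoa2 (11.3, others 12.1 to 12.8), Apoa5 (9.97, others 10.7 to 11.2) and Mttp (8.17, others 8.62 to 8.91). HFD+veh replicate 6 was low for Apoa4 (8.30, others 9.64 to 10.4) and Apoe (12.3, others 13.7 to 14.5), and its summed share of counts was 2.203% (others 3.58% to 4.53%). HFD+eRapa replicate 9 was low for Apoa2 (11.7, others 12.2 to 12.8). HFD+veh replicate 3 had the fewest total counts of its group, 19.8 M (others 21.3 to 22.03 M). The cause of these low values was not tested.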

How the results depend on the processing

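For diet, the number of the 10 genes called (2) was 1 with no expression filter, 0 with only the 2 groups compared, 0 with the immune covariate, 4 in each of the 3 limma fits on FPKM, and from 1 to 3 when 1 library was left out. For eRapa on the high-fat diet (2) it was 0 with the immune covariate, 4 in each limma fit and from 1 to 3 with 1 library left out. For HFD+eRapa against ND+veh (0) it was 1 (Apoa4) with DESeq2, with only the 2 groups, with the immune covariate and without HFD+veh replicate 6, so from 0 to 1. The replicate block gave 1 call (Mttp) in each of the first 2 comparisons (Apoa1 adjusted p = 0.0898 and 0.0603), and 0 in the third. On FPKM it lost the calls of Apoe for diet (-0.67, adjusted p = 0.0723) and Apob for eRapa (0.26, adjusted p = 0.1103). Same-numbered animals correlated from -0.66 to 0.73, with 9 of 22 pairs over 0.1. Between HFD+veh and ND+veh the range was -0.36 to 0.73, and between HFD+eRapa and HFD+veh -0.66 to 0.49. The labels do not name animals, and whether equal numbers shared handling was not tested. Signs that turned by counts were those of Apoc2 with the immune covariate (0.21, -0.22 and -0.014 in the 3 comparisons), and with it Apoa5 (-0.025 for eRapa) and, against ND+veh, Apoa1 (-0.021) and Mttp (-0.016), and Apoc1 under the replicate block (0.080 against ND+veh). On FPKM they were Apoc1 (-0.0064 for diet), Apoc2 (0.77, or 0.78 with a pseudocount of 0.1, for diet and -0.67 for eRapa), and, against ND+veh, Apoa1 (-0.085), Mttp (-0.090, or -0.091 with a pseudocount of 0.1) and Apoc3 (-0.058). Against ND+veh the median over all genes on FPKM was -0.084, or -0.12 with a pseudocount of 0.1. Leaving out 1 library moved Apoc1 from -0.095 to 0.14, from -0.17 to 0.061 and from -0.14 to 0.082, and, against ND+veh, Apoa1 from -0.090 to 0.10, Mttp from -0.077 to 0.032 and Apoc3 from -0.017 to 0.15. All of these were uncalled values near 0 except Apoc2 on FPKM.

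The called pairs (18) ran from 14 to 20 with 1 library left out and were 25 with the immune score regressed out and 15 on FPKM. The summed share moved by less than 1 SD in every setting tried, with 4.82% to 5.02%, 3.75% to 4.14% and 4.64% to 4.83% when 1 library was left out. In the companion lists the immune covariate changed the called regulators to 4, 4 and 6, VLDL genes to 1 (diet) and 7 (against ND+veh), receptors and lipases to 3, 1 and 5, and other apolipoproteins to 5 for diet. Without HFD+veh replicate 6 the VLDL genes were 3 and 2, receptors and lipases 2 and 4, regulators 6 for eRapa (11 without ND+veh replicate 4) and other apolipoproteins 1 for eRapa. Without ND+veh replicate 4 the VLDL genes were 9 for diet and other apolipoproteins 1 for eRapa. Over all genes the immune covariate gave 1238, 965 and 2720 calls of 13847 in the 3 comparisons. For diet and eRapa there were 2106 and 3269 calls of 13910 without HFD+veh replicate 6. There were 3593 and 4388 of 13727 without ND+veh replicate 4. The cause of these changes was not tested. Counts of 10 to 94 limit Apoc2 by counts; the FPKM table gives no depth.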
